A study of Schizosaccharomyces pombe with 8 samples.

Results

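Histone and histone chaperone genes are described here through hht2, htb1 and nap1 of the fission yeast Schizosaccharomyces pombe, 3 of the 527 genes in the deposited count table. They were chosen by name, with earlier results of these data known. The identifiers SPBC8D2.04.1 (hht2), SPCC622.09.1 (htb1) and SPCC364.06.1 (nap1) were matched to the RefSeq annotation. It names their products as histone H3, histone H2B and the H2A-H2B chaperone Nap1. RNA was sequenced from slr1- cells, a knockout (labelled KO) of the gene for the LARP1 homolog Slr1p, and from WT cells (strain yAS99). Both strains grew in YES medium at 32°C and received cycloheximide, a drug that stalls ribosomes on mRNA, at 100 µg/mL. Each strain gave total RNA and polysome RNA, the RNA bound by several ribosomes, with 2 libraries per group that the labels call biological replicates. The labels do not say how slr1 was removed or whether the strain is 1 clone, and slr1 itself was not analysed here, so every direction rests on the sample labels.

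Histones package DNA. A nucleosome wraps DNA around a core of H3, H4, H2A and H2B, and growing cells make most of their histone mRNA in S phase, when new DNA has to be packaged. In fission yeast H3 and H4 are each encoded by several gene copies, whereas htb1 is the gene for H2B. Nap1 escorts H2A-H2B dimers and keeps them soluble until they are placed on DNA. In other organisms LARP1 proteins bind mRNAs that encode ribosomal proteins and translation factors, and the study asked how RNA abundance and polysome association differ without Slr1p.

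The H3 copies resemble each other, which bears on how reads of hht2 can be counted. The first 30 coding bases of the 3 genes, read 5′ to 3′ from RefSeq assembly ASM294v3, are shown to let the copies be compared, and capitals mark bases that differ from hht2.
hht2: atggctcgtaccaagcaaactgctcgtaaa
hht1: atggctcgtacTaaAcaaacAgctcgtaaG
hht3: atggctcgtacTaagcaaactgcAcgtaaa
In this stretch hht1 differs from hht2 at 4 bases and hht3 at 2. Over the whole coding sequence of 411 bases, hht2 shares 365 bases with hht1 (88.8%) and 363 with hht3 (88.3%). Of the 651 stretches of 50 bases in the annotated hht2 transcript, the length of the reads, 0 occur unchanged in any other annotated transcript, and 56 (8.60%) lie within 2 mismatches of a stretch of hht1. For hht3 that number is 0. The limit of 2 mismatches was set here, and the mismatch allowance of the authors' alignment is not given in the sources used. How much of the hht2 count may be shared with hht1 or hht3 is therefore not known. The genes hht1 and hht3 were not analysed here.

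The promoter windows of the canonical (non-variant) genes for H3, H4 and H2A carry a repeat that the nap1 window lacks. Those of the H3 genes are shown because the tandem repeat AACCCTAACCCT (in capitals, on either strand) is their common feature. The 30 bases around it are given 5′ to 3′ on the strand of the gene, from RefSeq assembly ASM294v3.
hht2 promoter (chromosome II, plus strand): tcttaaatcAGGGTTAGGGTTgtgattgac
hht1 promoter (chromosome I, plus strand): ctgcatcaaAACCCTAACCCTgcttttgat
hht3 promoter (chromosome II, minus strand): tttaattaaAGGGTTAGGGTTgtgatcaaa
The repeat starts 59 bases before the annotated transcript start in hht2, 80 bases before it in hht1 and 73 bases before it in hht3. It was present in 8 of the 8 canonical genes for H3, H4 and H2A, between 59 and 140 bases before the start. Windows of neighbouring genes can hold the same copy of the repeat, so the counts here are of windows, and distinct copies were not counted. Of 5122 protein-coding genes, 20 (0.390%) held it in a window of 250 bases before to 50 bases after the start, and 498 (9.72%) held at least 1 AACCCT on either strand. Among the listed genes 8 of 514 windows (1.56%) held the repeat and 84 (16.3%) held AACCCT. The nap1 window held neither, and nor did those of the histone variant genes pht1 and cnp1 or of nap2, ani1 and nhp6. These matches describe sequence letters in the annotated windows and are not measured binding sites.

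The 3 genes have other features of sequence that differ little or touch their counts. Each has 1 annotated exon, and the GC content of the transcript is 38.9% in hht2, 38.7% in htb1 and 38.9% in nap1. The annotated transcript of htb1 (1319 bases, of which 381 are coding) overlaps sec5 by 258 bases and the noncoding gene SPNCRNA.7358 by 151 bases on the opposite strand. It also overlaps the noncoding gene SPNCRNA.1194 by 6 bases on its own strand. The library kit keeps strand, but whether the counting used it is not stated, so reads of htb1 and of its antisense partners may not be told apart. The nap1 transcript (2064 bases, 1182 coding) overlaps 1 opposite noncoding gene by 45 bases, and that of hht2 (700 bases) overlaps none.

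The libraries held between 550490 and 1110838 counts over the 527 listed genes, which is not their full depth. Values are given as normalised counts, the count divided by the library total times its TMM factor (a scaling factor from the bulk of the genes) and brought to the mean library. They are relative to the other listed genes, 126 of which encode ribosomal proteins (RP). The rule that chose the 527 genes is not stated in the sources used here, so shares and ranks hold for these genes only. The median log2 difference of all 527 genes between slr1- and WT was -0.19 in total RNA, whereas that of the RP genes was 0.38.

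In total RNA, nap1 fell without Slr1p while the histone genes did not pass the test. The chaperone gene nap1 had 118 and 159 normalised counts in slr1- total RNA, against 303 and 237 in WT total RNA (raw counts 144 and 176 in slr1-, 303 and 240 in WT). Both slr1- libraries lay below both WT libraries, and the groups did not overlap in 76.7% of the listed genes. The mean was 139 ± 29.0 in slr1- and 270.3 ± 46.5 in WT (SD, n = 2 libraries each), a log2 fold change of -0.97 ± 0.20 (SE; 95% interval -1.41 to -0.52) or 0.512-fold. This passed edgeR's quasi-likelihood test over all genes (Benjamini-Hochberg adjusted p = 0.00421), and nap1 had the 24th lowest value of the 527. Of the listed genes 53.3% passed in this comparison, 33.6% as lower and 19.7% as higher, so a call alone does not set nap1 apart. Relative to the median of all genes its change was -0.78. It passed in 11 of 11 alternatives (adjusted p 4.39e-04 to 0.0467). With TMM factors taken from the other genes, leaving out RP genes (non-RP TMM factors), the change was smallest, at -0.64 and 0.79 below the median of all genes there.

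The H3 gene hht2 had 528 and 525 normalised counts in slr1- total RNA, against 548 and 594 in WT total RNA. The groups did not overlap, as in 76.7% of the listed genes, but the gap was narrow. The log2 fold change of hht2 was -0.12 ± 0.13 (95% interval -0.40 to 0.16) and did not pass (adjusted p = 0.431). Its sign turned to 0.22 with non-RP TMM factors and to 0.0084 with factors from the compared groups alone, and relative to the median of all genes it was 0.072.

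The H2B gene htb1 had 586 and 615 normalised counts in slr1- total RNA, against 729 and 808 in WT total RNA. The 2 groups did not overlap, as in 76.7% of the listed genes. Its log2 fold change was -0.36 ± 0.17 (95% interval -0.72 to 0.0086) and did not pass (adjusted p = 0.0904). It passed with library sizes alone (-0.54) and with genes of at least 500 counts (-0.50), and was -0.020 with non-RP TMM factors. The histone genes thus had 0 of 2 members past the threshold in total RNA, with intervals that reach a log2 change of -0.40 for hht2 and -0.72 for htb1. RNA of fewer cells in S phase and less RNA per cell cannot be told apart in these bulk samples.

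**Figure D1:**
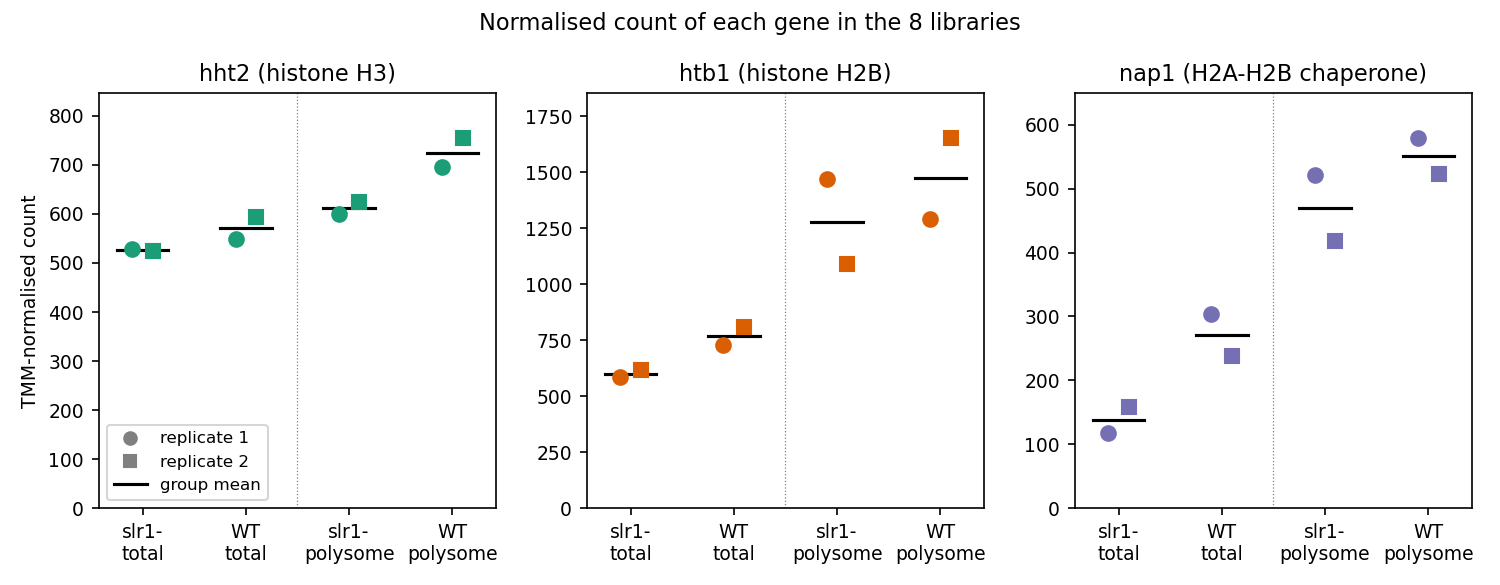
TMM-normalised counts (y axis, from 0) of hht2, htb1 and nap1 in the 8 libraries, grouped on the x axis. Circles are replicate 1, squares replicate 2 and lines the mean of 2 libraries. The nap1 values of slr1- total RNA (118 and 159) lie below the other 6, and all polysome values of htb1 (1091 to 1652) lie above all total RNA values (586 to 808).

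In polysome RNA the 3 genes had slightly lower values in slr1-, and none of them passed. In the edgeR quasi-likelihood test 0 of the 527 genes passed here (0%), with 100 genes at an unadjusted p under 0.05, 12 genes past the threshold in DESeq2 and 0 in limma-voom. The nap1 gene had 521 and 418 normalised counts in slr1- polysome RNA, against 579 and 522 in WT polysome RNA. The groups touched without overlapping, and the log2 fold change was -0.23 ± 0.19 (95% interval -0.64 to 0.18, adjusted p = 0.514). The hht2 gene had 599.7 and 625 in slr1- and 695 and 755 in WT (log2 -0.24 ± 0.13, interval -0.52 to 0.034, adjusted p = 0.316). Its groups were apart too, which was so for 59.4% of the listed genes.

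For htb1 the polysome libraries spread widely within each strain. It had 1467 and 1091 normalised counts in slr1- polysome RNA, against 1291 and 1652 in WT polysome RNA, and the groups overlapped. The log2 fold change was -0.20 ± 0.16 (95% interval -0.56 to 0.15, adjusted p = 0.506), and it lay between -0.46 and -0.0045 when single libraries were left out.

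Polysome and total RNA were then compared within each strain, which asks how strongly an mRNA is represented on polysomes relative to the other listed mRNAs. Both htb1 and nap1 were higher in polysome than in total RNA in each strain. In slr1- cells nap1 had 521 and 418 normalised counts in polysome RNA, against 118 and 159 in total RNA. The groups did not overlap, as in 83.5% of the listed genes. The difference between their means was tested. This is 3.40-fold (log2 1.76 ± 0.20, adjusted p = 2.98e-05, edgeR quasi-likelihood), the 5th highest value of the 527 genes. By mean normalised count in slr1- total RNA, nap1 was only the 520th highest gene, and in WT total RNA the 503rd. In polysome RNA it was the 330th in slr1- and the 303rd in WT. The rule that chose the listed genes is not stated, so whether nap1 is listed through its polysome counts cannot be told. Its high ranks for polysome over total RNA may depend on that choice, which was not tested. In WT cells nap1 had 579 and 522 in polysome RNA and 303 and 237 in total RNA. That is 2.04-fold (log2 1.03 ± 0.19, adjusted p = 0.00134), the 8th highest. As background, 64.7% of the genes passed in slr1- (34.0% as higher and 30.7% as lower), and 49.7% passed in WT (20.9% as higher and 28.8% as lower).

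The htb1 mRNA was also higher in polysome RNA. In slr1- cells it had 1467 and 1091 normalised counts in polysome RNA, against 586 and 615 in total RNA, a 2.13-fold difference (log2 1.09 ± 0.17, adjusted p = 1.93e-04). In WT cells it had 1291 and 1652 in polysome RNA, against 729 and 808 in total RNA, a 1.91-fold difference (0.94 ± 0.16, adjusted p = 9.33e-04). The groups were apart in each strain, as in 83.5% of the listed genes in slr1- and 76.1% in WT. By size htb1 was the 54th highest gene in slr1- and the 10th in WT.

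The size of the hht2 difference between the fractions depended on the scaling. In slr1- cells it had 599.7 and 625 normalised counts in polysome RNA, against 528 and 525 in total RNA, which did not pass (log2 0.22 ± 0.13, 95% interval -0.058 to 0.50, adjusted p = 0.147). In WT cells it had 695 and 755 in polysome RNA, against 548 and 594 in total RNA, and this passed narrowly (0.34 ± 0.13, adjusted p = 0.0418; 0.0016 to 0.245 over 13 alternatives). The WT call was lost when any 1 of the 4 libraries was left out (0.29 to 0.40). With non-RP TMM factors, the slr1- value of hht2 turned to -0.16 and the WT value was 0.24. With library sizes alone it was 0.62 in slr1- and 0.66 in WT, and both passed. The nap1 and htb1 calls remained in each strain in all alternatives run, 12 for nap1 and 13 for htb1 per strain. The median of all genes moved with non-RP TMM factors by 0.34 for slr1- against WT in total RNA, by -0.37 for polysome against total RNA in slr1- and by -0.10 for the same in WT. With library sizes alone these shifts were -0.18, 0.41 and 0.32. The split of the called genes moved with it. In total RNA it was 104 higher and 177 lower, against 182 and 72 with non-RP factors and 60 and 260 with library sizes alone. In slr1- polysome against total RNA it was 179 higher and 162 lower, against 100 and 246 with non-RP factors and 292 and 94 with library sizes alone. In WT it was 110 higher and 152 lower, against 79 and 166 with non-RP factors and 246 and 104 with library sizes alone.

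**Figure D2:**
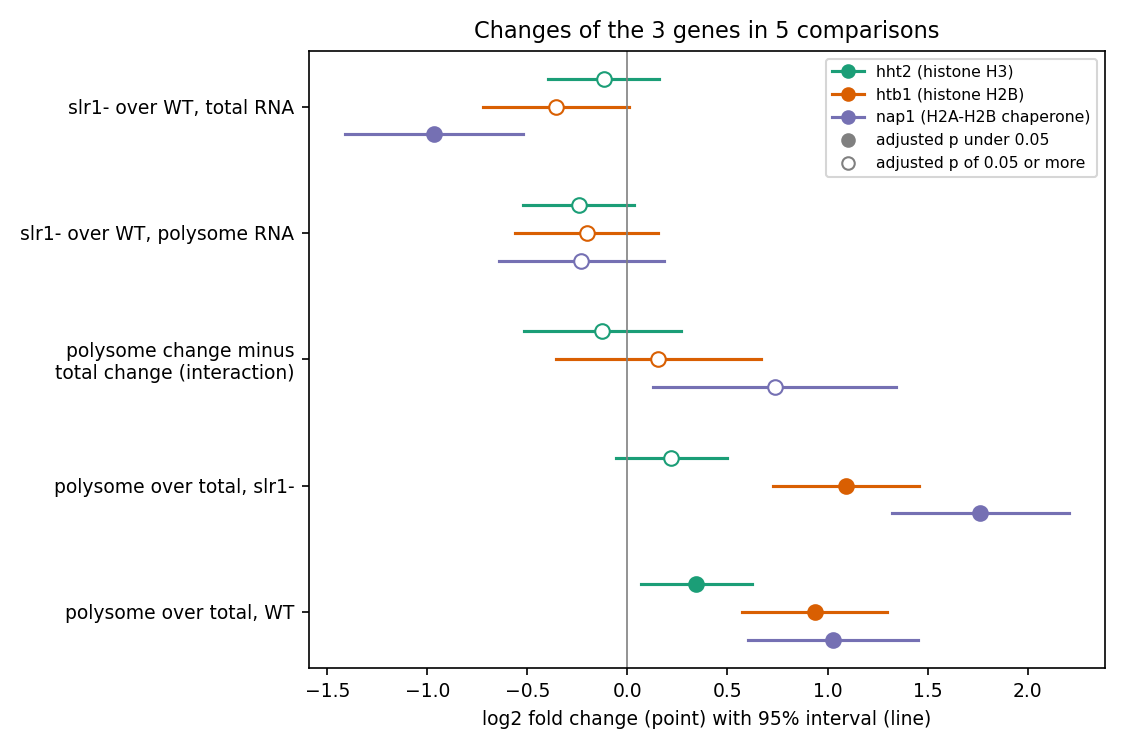
Log2 fold changes (x axis) with 95% intervals for the 3 genes in the 5 comparisons (y axis); filled points have an adjusted p under 0.05. The filled points are nap1 in slr1- against WT total RNA (-0.97), nap1 (1.76) and htb1 (1.09) in slr1- polysome against total RNA, and all 3 genes in WT polysome against total RNA (0.34 to 1.03).

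Ratios of 2 genes inside 1 library do not depend on any scaling factor. The ratio of htb1 to hht2 counts was 2.45 and 1.74 in slr1- polysome RNA, against 1.11 and 1.17 in slr1- total RNA. It was 1.86 and 2.19 in WT polysome RNA, against 1.33 and 1.36 in WT total RNA. All 4 polysome libraries lay above all 4 total RNA libraries, by 1.65-fold on average. An exact two-sided permutation test of the fraction labels within strains gave p = 0.0556 (adjusted p = 0.0833 over 3 ratios), which is the smallest p that the 36 arrangements allow. The nap1 to hht2 ratio was 0.869 and 0.668 in slr1- polysome RNA, against 0.224 and 0.303 in slr1- total RNA. It was 0.833 and 0.692 in WT polysome RNA, against 0.553 and 0.399 in WT total RNA. This ratio was 2.18-fold higher in polysome RNA, with the same smallest exact permutation p of 0.0556. The ratio of nap1 to htb1 was 1.32-fold higher in polysome RNA (exact permutation p = 0.111, adjusted p = 0.111). It was 0.355 and 0.383 in slr1- polysome RNA, against 0.201 and 0.259 in slr1- total RNA, and 0.449 and 0.316 in WT polysome RNA, against 0.416 and 0.294 in WT total RNA. Both slr1- total RNA libraries thus lay below the other 6.

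Whether the strain difference itself differed between the fractions was tested as an interaction, the change in polysome RNA minus the change in total RNA. For nap1 it was 0.74 ± 0.27 (95% interval 0.13 to 1.34). It did not pass edgeR's quasi-likelihood test (adjusted p = 0.121, and 0.0589 to 0.411 over 15 alternatives). The nap1 interaction was 0.45 without slr1- polysome RNA replicate 1, up to 0.96 without slr1- total RNA replicate 2, and 0.47 with non-RP TMM factors. The nap1 ratio of polysome to total RNA was 4.42 and 2.63 in slr1- for the libraries of the same number, against 1.91 and 2.20 in WT. Both slr1- ratios were above both WT ratios, and the ratios of the strains were apart in 62.0% of the listed genes, although the labels do not say that libraries of the same number share a culture. The interaction was -0.12 ± 0.18 for hht2 (interval -0.52 to 0.27, adjusted p = 0.658) and 0.15 ± 0.23 for htb1 (interval -0.36 to 0.67, adjusted p = 0.673). With non-RP TMM factors the hht2 value was -0.40 and the htb1 sign turned to -0.12. Without single libraries the hht2 value lay between -0.22 and -0.068, the lowest without slr1- polysome RNA replicate 1. Of the 527 genes 2 passed (0.380%).

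The authors' deposited table gives its own values for the same genes. There nap1 has a log2 fold change in total RNA of -0.96 with a false discovery rate of 3.77e-04, htb1 one of -0.35 with 0.0821 and hht2 one of -0.11 with 0.607. In the authors' deposited table the translation test gives false discovery rates of 0.912 for nap1, 0.888 for htb1 and 0.875 for hht2. The table's ratios of polysome to total RNA in slr1- over WT are 2.01 and 1.22 for nap1, 1.23 and 0.89 for htb1 and 0.78 and 0.96 for hht2. They equal ratios of the raw counts of libraries of the same number, without scaling, unlike the normalised ratios given above. The same deposited table classes nap1 as changed in both measures and the histone genes as changed in translation only. These classes stand beside translation false discovery rates of 0.875 or more. Its separate ratio of total RNA in slr1- over WT is 0.589 for nap1, 0.902 for htb1 and 1.07 for hht2. These equal the summed raw counts of the 2 slr1- libraries divided by those of the 2 WT libraries, without scaling for library size. The listed totals were 1110838 and 984147 in slr1- total RNA and 802359 and 792679 in WT total RNA. For hht2 the direction of this unscaled ratio is opposite to its deposited log2 fold change of -0.11.

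**Figure D3:**
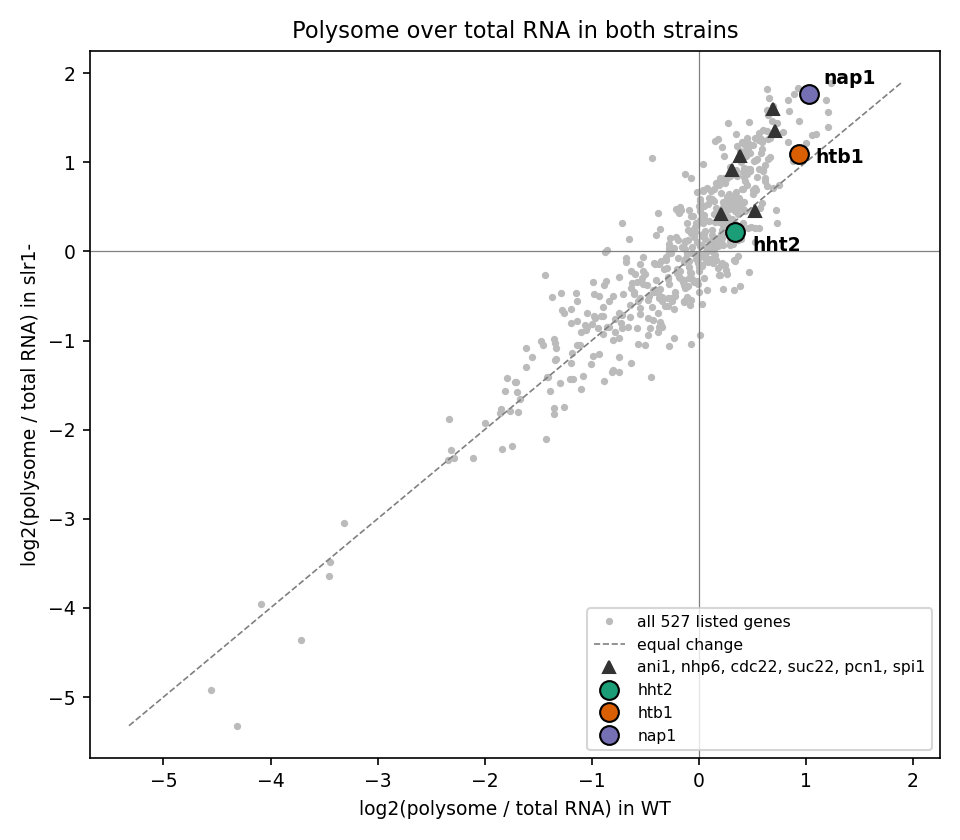
Log2 ratio of polysome to total RNA in slr1- (y axis) and in WT (x axis) for all 527 listed genes (grey), the 3 genes (circles) and 6 genes of the lists on histones, chromatin, S phase and nuclear import (triangles), with a dashed line of equal values. The nap1 point (1.76 in slr1-, 1.03 in WT) and the htb1 point (1.09 and 0.94) lie near the upper end, and hht2 (0.22 and 0.34) lies below both on each axis.

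Levels were compared between the genes per kilobase of the annotated transcript. On this scale hht2 averaged 752 ± 2.63 normalised counts per kilobase in slr1- total RNA and 816 ± 46.7 in WT total RNA. The htb1 gene averaged 455 ± 15.4 in slr1- and 583 ± 42.2 in WT total RNA, and nap1 averaged 67.1 ± 14.1 in slr1- and 131 ± 22.5 in WT (SD, n = 2 libraries each). The order hht2, htb1, nap1 held in each total RNA library. In polysome RNA hht2 averaged 875 ± 25.9 in slr1- and 1036 ± 60.5 in WT, and htb1 averaged 970 ± 202 in slr1- and 1116 ± 194 in WT, so these neighbours did not differ beyond their spread. The nap1 level was lowest there as well, with 228 ± 35.5 in slr1- and 267 ± 19.5 in WT. The place of htb1 rests on its annotated length, of which 813 bases lie after the coding sequence. Per kilobase of coding sequence htb1 was above hht2 in WT total RNA (2018 ± 146 for htb1 and 1390 ± 79.5 for hht2), and nap1 (229 ± 39.3) was again the lowest.

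Other genes around histones were taken from hand-made lists, drawn up with earlier results of these data known, of histones, histone chaperones, histone gene regulators, chromatin proteins, S phase genes and nuclear import genes. Of 11 histone genes 2 are in the table, hht2 and htb1, and of 21 names of histone chaperones 2 are, nap1 and ani1. Of 30 chromatin genes the table holds 1 (nhp6), of 35 S phase genes 3 (cdc22, suc22 and pcn1), of 14 nuclear import names 1 (spi1) and of 4 histone gene regulators 0. In total RNA 4 of the 6 genes that are not hht2, htb1 or nap1 fell in slr1-, 0 rose and 2 did not pass, beside 33.6% of all 527 genes that passed as lower. Their median log2 change was -0.67, beside -0.19 for all genes.

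The 4 genes that fell in total RNA were ani1, nhp6, pcn1 and suc22. The FK506-binding prolyl isomerase gene ani1 (listed as Fkbp39, a histone chaperone of fission yeast) averaged 515 ± 18.7 normalised counts in slr1- and 889.8 ± 3.66 in WT (log2 -0.79 ± 0.12, adjusted p = 0.00129, edgeR quasi-likelihood). The gene nhp6 of a DNA-bending high-mobility group protein averaged 164 ± 43.6 in slr1- and 298 ± 32.8 in WT (-0.86 ± 0.19, adjusted p = 0.00526). Among S phase genes, pcn1, the gene of the sliding clamp PCNA, fell (-0.63 ± 0.15, adjusted p = 0.00652), as did suc22, a subunit of ribonucleotide reductase (-0.71 ± 0.21, adjusted p = 0.0153). The large subunit gene cdc22 had -0.60 ± 0.25 and did not pass (adjusted p = 0.0632). The Ran GTPase gene spi1 had 0.056 ± 0.11 and did not pass (adjusted p = 0.671). It was 0.40 and passed with non-RP TMM factors, and its sign turned with library sizes alone (-0.13). The suc22 and pcn1 calls were lost with non-RP TMM factors (-0.39 and -0.30), and suc22 was also lost without replicate 1 of slr1- total RNA (-0.42). The cdc22 gene passed with library sizes alone (-0.78), with genes of at least 500 counts (-0.75), with the compared groups only (-0.49), with the replicate block (-0.59) and without replicate 1 of WT total RNA (-0.89).

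In polysome RNA 0 of these 6 genes passed between the strains. Relative to total RNA, polysome values were higher for 5 of the 6 in slr1- and for 4 of the 6 in WT, and lower for 0 in either strain, beside 34.0% of all genes that passed as higher in slr1- and 20.9% in WT. Of the 6, nhp6 had the highest value in slr1-, with log2 1.60 ± 0.19 (adjusted p = 4.17e-05), and had 0.70 ± 0.19 in WT (adjusted p = 0.0105). The highest in WT was suc22, with 1.35 ± 0.21 in slr1- (adjusted p = 1.96e-04) and 0.71 ± 0.20 in WT (adjusted p = 0.0135). The ani1 gene had 1.08 ± 0.12 in slr1- (adjusted p = 2.80e-05) and 0.38 ± 0.12 in WT (adjusted p = 0.0201). The WT call was lost for ani1 without any 1 of the 4 libraries (0.34 to 0.44) and with non-RP TMM factors (0.28), for suc22 without WT total RNA replicate 2 or WT polysome RNA replicate 1, and for nhp6 without WT total RNA replicate 1 (0.59). The slr1- call of spi1 was lost without slr1- polysome RNA replicate 1 (0.23) and with non-RP TMM factors (0.068). The interaction passed for 0 of the 6 genes in edgeR's quasi-likelihood test, with a median of 0.62 beside 0.15 for all genes. It was 0.90 ± 0.26 for nhp6 (adjusted p = 0.0757) and 0.69 ± 0.17 for ani1 (adjusted p = 0.0531). For suc22 it was 0.64 ± 0.29 (adjusted p = 0.182) and for pcn1 0.60 ± 0.21 (adjusted p = 0.109). The cdc22 value was 0.21 ± 0.35 and the spi1 value -0.076 ± 0.15. Alternatives were not recorded for the interactions of these 6 genes.

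**Figure D4:**
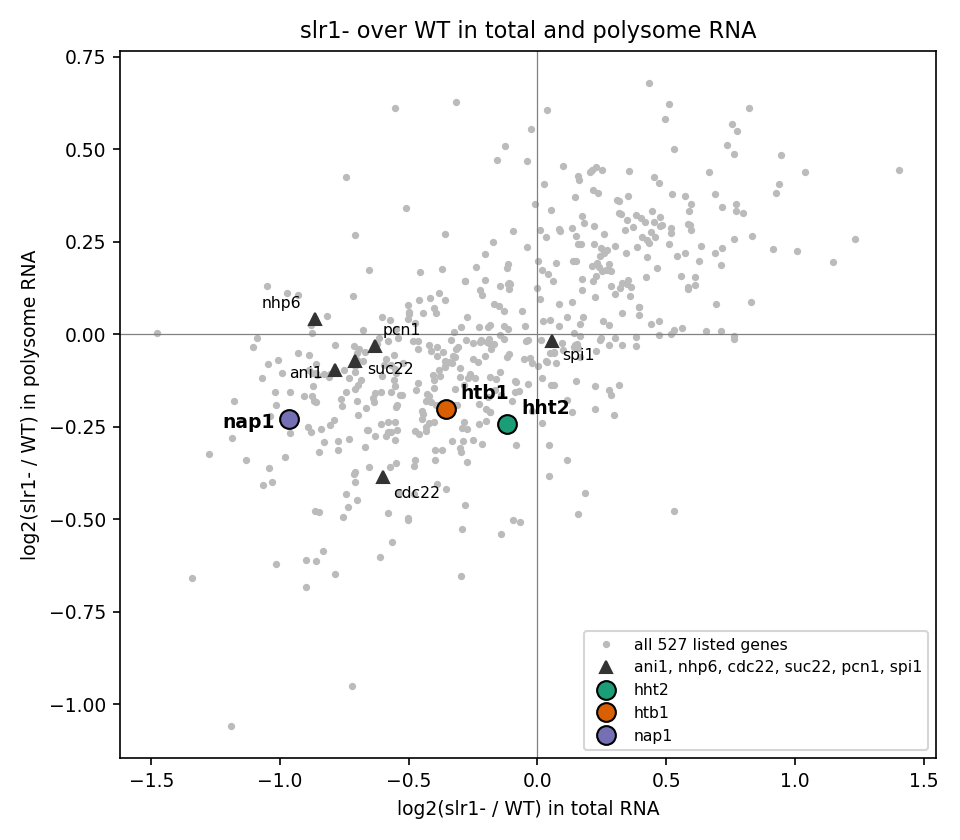
Log2 fold change of slr1- over WT in total RNA (x axis) and in polysome RNA (y axis) for all 527 listed genes (grey), the 3 genes (circles) and 6 genes of the lists (triangles). The x positions run from nap1 (-0.97) to hht2 (-0.12), while the y positions of the 3 genes lie between -0.24 and -0.20.

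The genes whose values followed each gene most closely were ranked by Pearson's r of log2 normalised values over the 8 libraries, as a description. The libraries share strain and fraction, so a high r reflects those differences too. For nap1 these were the chaperonin gene cct1 (r = 0.996), the ATPase gene rli1 (0.993) and the translation release factor gene erf1 (0.991). For htb1 they were pil1 of a lipid-binding protein (0.983), tif211 of initiation factor eIF2 alpha (0.977) and the spermidine synthase gene srm1 (0.975). For hht2 they were the thioredoxin reductase gene trr1 (0.956), the aldehyde dehydrogenase gene atd1 (0.939) and SPBPB7E8.01 (0.933). Between the 3 genes r was 0.931 for htb1 and nap1, 0.884 for hht2 and htb1 and 0.816 for hht2 and nap1.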

How the data were processed

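The deposited table gives whole-number counts per gene for 8 libraries of single reads of 50 bases. Per the submitters' processing notes reads were processed with Bowtie and RSEM, with versions, options and build not given in the sources used here. Per the labels' protocols ribosomal RNA was removed and strand-specific libraries were built. The deposited log2 fold changes, the authors' p-values and false discovery rates, the authors' ratios and a score for direction were not used in any test. Columns were matched to samples by their names. The main test was the quasi-likelihood test of edgeR 4.0.16 in R 4.3.3, using TMM factors and all 8 libraries, where each group had its own mean. This left 4 residual degrees of freedom, and the biological coefficient of variation was 0.113. The test draws the spread of each gene toward that of all genes, so tests and intervals used more than 4 degrees of freedom. Tests were two-sided, with Benjamini-Hochberg adjustment over the 527 genes and a threshold of 0.05. Standard errors were obtained from the fold change and its F statistic, and intervals are 95% intervals. No gene was removed, since the lowest mean was 161 counts. The p-values measure the spread between libraries. The named genes are hht2, htb1 and nap1, the listed genes of the lists, and the nearest genes by pattern. Nearest genes were the 3 highest correlations per gene, on log2 of CPM plus 0.5. The genes and lists were chosen with earlier results of these data known. RefSeq assembly ASM294v3 gave names for 515 of 527 identifiers, and no coordinates are printed. The promoter of htb1 is not reported here. Alternatives used DESeq2 1.42.0 (without independent filtering), limma-voom 3.58.1, other scaling factors, a filter, blocks and single libraries left out. The fit was also run on simulated counts, where all genes had the same dispersion and 200 genes were changed in slr1- total RNA. That simulation held no common shift of RP genes, so it does not bear on the choice of scaling factors.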

Additional observations from a re-analysis of the deposited data

How the results depend on the processing

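The nap1 and htb1 calls named in the report kept direction and call in every alternative run, and nap1 could not be fitted with genes of at least 500 counts. The hht2 call in WT polysome against total RNA was lost with DESeq2 (0.35), non-RP TMM factors (0.24) and the replicate block (0.34, adjusted p = 0.0512), and without single libraries (0.29 to 0.40). The replicate block changed no other call of the 3 genes. Signs turned for hht2 in total RNA with non-RP factors (0.22) and with the compared groups only (0.0084), and for hht2 in slr1- polysome against total RNA with non-RP factors (-0.16). The htb1 interaction turned with non-RP factors (-0.12), without slr1- polysome RNA replicate 1 (-0.19) and without WT polysome RNA replicate 1 (-0.013), in a range of -0.19 to 0.31. With library sizes alone htb1 in total RNA (-0.54) and hht2 in slr1- polysome against total RNA (0.62) passed, as they did with genes of at least 500 counts (-0.50 and 0.38). The spi1 value in total RNA turned to -0.13 with library sizes alone and to -0.087 with genes of at least 500 counts. Relative to the median of all genes, hht2 in slr1- polysome against total RNA was 0.16, with 0.15 for non-RP factors and 0.16 for library sizes alone. In total RNA these hht2 values were 0.072, 0.073 and 0.070. With genes of at least 500 counts they were 0.34 in slr1- polysome against total RNA and -0.22 in total RNA. The cause of the shifts was not tested.

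Counts of genes past the threshold moved as follows. With genes of at least 500 counts, of which 312 were tested, 134 passed in total RNA against 281, 197 in slr1- polysome against total RNA against 341, and 160 in WT against 262. For the interaction 37 genes passed with DESeq2, 0 with limma-voom, 0 with non-RP factors, 31 with library sizes alone, 13 with genes of at least 500 counts, 9 with the replicate block and 46 with the replicate block within strain, against 2. The interaction calls split into 1 higher and 1 lower, against 25 and 6 with library sizes alone, 8 and 5 with genes of at least 500 counts and 35 and 11 with the block within strain. In polysome RNA 12 passed with DESeq2, and 0 to 2 without single libraries (2 without slr1- polysome RNA replicate 1). Without single libraries 127 to 288 genes passed in total RNA (127 without slr1- total RNA replicate 1), 163 to 228 in WT polysome against total RNA (163 without WT polysome RNA replicate 1) and 0 to 77 for the interaction. The last were 77 without slr1- total RNA replicate 2, 32 without WT total RNA replicate 1, 5 without WT total RNA replicate 2, and 0 without slr1- total RNA replicate 1, either slr1- polysome library or WT polysome RNA replicate 1. Such a fit leaves 1 group with a single library, whose spread is taken from the other groups. The deviations of libraries of the same number were correlated over 527 genes. Between the strains r was -0.14 in total RNA and -0.064 in polysome RNA. Between the fractions r was 0.070 in slr1- and 0.29 in WT. It was -0.29 between WT total RNA and slr1- polysome RNA. Whether libraries of the same number share a culture was not tested. Depth limits nap1 most, with 144 to 515 counts per library.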
